A study of Mus musculus with 8 samples.

Results

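RNA levels were compared between mouse embryonic fibroblasts that had received RSL3 after SRT1720 and fibroblasts that had received SRT1720 without RSL3. Both groups had 2 libraries each, so 4 of the 8 libraries of the series entered the comparison. The other 4 entered the read filter, the scaling and the shared estimate of the spread. The deposited table listed 17910 genes, of which 1307 were at 0 in all 4 libraries compared. Of all genes, 12618 had enough reads among the 8 libraries to be tested, against 12298 with the 4 libraries alone. The cells were wild-type fibroblasts bought from the American Type Culture Collection and grown in DMEM with 10% serum. The cells of all 4 libraries had SRT1720 at 0.2 µM, and the treated pair then had RSL3 at 1 µM for 2 h, with SRT1720 added 30 min before it. The vehicle of the libraries without RSL3 is not given in the sources used here. Libraries were made from poly(A) RNA with the TruSeq Stranded mRNA LT kit and read on an Illumina sequencer. The labels do not say whether replicates were separate cultures, so p-values reflect only how far these libraries vary, and that variation may be technical. The extraction text of the labels names HT1080 cells and lung homogenates, neither of which is among these samples.

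RSL3 binds GPX4, the selenoenzyme that uses glutathione to reduce lipid hydroperoxides in membranes, and cells that lose this activity can die by ferroptosis, an iron-dependent death by lipid peroxidation. As an electrophile RSL3 can also react with thiols of other proteins. Cells answer such damage with several transcription programs: HSF1 drives chaperone genes when proteins unfold, ATF4 drives amino acid and redox genes when the initiation factor eIF2α is phosphorylated, NRF2 drives antioxidant genes when KEAP1 is modified, and stress-activated kinases drive immediate early genes. SRT1720 is a small molecule marketed to activate SIRT1, an NAD-dependent deacetylase whose substrates include FOXO transcription factors.

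The binding elements of these programs are shown first for genes that the results below turn on. Each line is the DNA around the element within the 250 bases before the gene's RefSeq start, on the gene's own strand (RefSeq, mouse build GRCm38.p6), with the matched element in capitals.
Hspa1b: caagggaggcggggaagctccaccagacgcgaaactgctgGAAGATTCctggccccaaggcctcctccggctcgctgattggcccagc
Hspa1a: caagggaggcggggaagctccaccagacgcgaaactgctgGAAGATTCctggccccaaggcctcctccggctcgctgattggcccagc
Hspb1: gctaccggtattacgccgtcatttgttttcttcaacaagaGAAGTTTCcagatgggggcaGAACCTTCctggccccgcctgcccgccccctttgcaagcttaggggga
Hspe1: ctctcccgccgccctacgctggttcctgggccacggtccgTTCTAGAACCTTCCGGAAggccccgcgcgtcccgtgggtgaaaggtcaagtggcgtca
Chac1: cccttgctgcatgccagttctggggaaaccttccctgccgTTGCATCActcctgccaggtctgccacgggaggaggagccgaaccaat
Atf3: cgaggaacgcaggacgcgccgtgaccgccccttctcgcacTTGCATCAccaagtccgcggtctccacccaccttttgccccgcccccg
Nupr1: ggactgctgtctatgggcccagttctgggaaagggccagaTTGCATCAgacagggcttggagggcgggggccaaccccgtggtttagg
Maff: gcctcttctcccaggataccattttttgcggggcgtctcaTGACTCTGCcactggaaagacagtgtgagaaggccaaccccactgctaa
Gclm: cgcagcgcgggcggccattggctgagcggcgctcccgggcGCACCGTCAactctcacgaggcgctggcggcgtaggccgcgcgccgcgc
Dusp1: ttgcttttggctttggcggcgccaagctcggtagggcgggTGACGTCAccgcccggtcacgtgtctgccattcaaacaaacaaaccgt
Btg2: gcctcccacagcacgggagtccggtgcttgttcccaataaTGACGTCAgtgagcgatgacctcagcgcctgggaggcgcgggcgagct
Ifit1: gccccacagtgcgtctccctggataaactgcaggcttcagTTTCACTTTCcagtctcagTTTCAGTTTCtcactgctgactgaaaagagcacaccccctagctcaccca
Rsad2: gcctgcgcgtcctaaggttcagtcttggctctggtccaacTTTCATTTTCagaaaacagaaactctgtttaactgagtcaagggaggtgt
The windows lay at chr17:34959295-34959382, minus strand (Hspa1b), chr17:34972213-34972300, minus strand (Hspa1a), chr5:135887762-135887869, plus strand (Hspb1), chr1:55088019-55088116, plus strand (Hspe1), chr2:119351009-119351096, plus strand (Chac1), chr1:191183396-191183483, minus strand (Atf3), chr7:126625533-126625620, minus strand (Nupr1), chr15:79346469-79346557, plus strand (Maff), chr3:122245383-122245471, plus strand (Gclm), chr17:26508568-26508655, minus strand (Dusp1), chr1:134079274-134079361, minus strand (Btg2), chr19:34640745-34640853, plus strand (Ifit1) and chr12:26456523-26456612, minus strand (Rsad2). The windows of Hspa1a and Hspa1b are 88 bases long and differ at 0 positions.

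Each motif was searched on both strands. The heat shock half-site pair GAANNTTC, marked in the chaperone genes Hspa1b, Hspa1a and Hspb1, was in the promoters of 7 of the 19 called heat shock genes that have a RefSeq promoter (36.8%), against 6.03% of 10099 tested genes and 6.69% of all 32851 promoters. The longer element, in which that pair is followed by NN and a further GAA, was found in Hspd1 and Hspe1. It was in 0.426% of tested genes and 0.466% of all promoters. Hspd1 and Hspe1 are a head-to-head gene pair with a shared upstream region, so their matches lie in the same DNA. They are among the 7 genes above, as are Hspa1a and Hspa1b with their identical windows, so the 7 are not separate sequences. The C/EBP-ATF response element TGATGNAA, read by ATF4 and its partners, was in 8 of 29 called ATF4 genes (27.6%), 2.36% of tested genes and 3.45% of all promoters. The antioxidant response element TGACNNNGC, the NRF2 site, was in 5 of 11 called NRF2 genes (45.5%), 13.9% of tested genes and 10.2% of all promoters, and Hmox1 had no match in this window. The cAMP response element TGACGTCA was in 4 of 25 called immediate early genes (16%), the others beside Dusp1 and Btg2 being Errfi1 and Plk2, and in 3.02% of tested genes and 1.55% of all promoters. The interferon-stimulated response element, GAAA repeated with NN between the copies, was in 3 of 9 interferon-stimulated genes called lower (33.3%), with Stat2 the one not shown, and in 3.07% of tested genes and 2.98% of all promoters. The metal response element TGCGCNC was in 1 of 4 called metallothionein and zinc genes, Mt2, against 25.3% of tested genes and 12.5% of all promoters. Over all genes called in the same direction, the heat shock pair was in 6.77%, the longer element in 0.897% and the C/EBP-ATF element in 3.92%. The antioxidant element was in 15.9%, the cAMP element in 4.57%, the interferon element in 3.23% and the metal element in 26.9%. The lists were written from textbook knowledge of these programs, so their shares do not measure an effect of RSL3. A match describes the letters of the window and not the binding of a factor.

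The 4 libraries held between 20579122 and 21287620 counts each. Their 10 most abundant genes took 5.94% and 6.01% of the counts with SRT1720 alone and 8.06% and 8.18% after RSL3, and TMM factors were 1.09 and 1.08 against 0.942 and 0.931. The SD of the log2 difference between the libraries of a pair was 0.17 in both groups over 9711 genes, and that difference followed transcript length in the RSL3 pair (Spearman rho -0.52 across genes, which are not independent replicates) more than in the other pair (0.06). For the log2 change between the groups rho was -0.08 with length and 0.08 with GC content. Of the fibroblast markers, Col1a1 at 1780.2 to 1943 CPM, Vim at 2273 to 3159 CPM and Fn1 at 1671 to 2273 CPM were abundant in all 4 libraries. The 11 markers in the table summed to 6755 to 7929 CPM, most of it from these genes. Pdgfrb was at 72.9 to 102 CPM, and Fap reached only 0.132 CPM. Here CPM is the count per 1000000 counts of a library after TMM scaling. Values in parentheses after gene names, here and below, are log2 changes after RSL3, and a gene is said to rise or fall where it passed edgeR's test. Of the fibroblast markers tested, Vim rose (0.41) and Pdgfrb fell (-0.42) among 10. Leaving out any 1 of the 4 libraries ended the call of Pdgfrb (-0.40 to -0.46). Vim lost its call without SRT1720 plus RSL3 replicate 1 (0.42), without SRT1720 plus RSL3 replicate 2 (0.39) and without SRT1720 replicate 1 (0.36). By other settings, Vim (0.20) did not pass with library size only.

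Some markers of other cell types moved with RSL3. The 6 macrophage markers in the table summed to 24.5 and 27.4 CPM with SRT1720 alone and to 32.2 and 34.9 CPM after RSL3, with Ptprc at 0 in both RSL3 libraries. Of the 3 tested, Csf1r (1.05) and Cd68 (0.78) rose. Endothelial markers summed to 5.64 and 6.13 CPM and then to 10.7 and 10.2 CPM, with Kdr higher (1.56) and Emcn at 0 in all 4 libraries. Epithelial markers summed to 1.25 and 1.28 CPM and then to 2.50 and 3.77 CPM, with Grhl2 higher (2.14) and Krt5 at 0. Grhl2 rested on few counts, 10 and 10 with SRT1720 and 34 and 45 after RSL3. Neural markers summed to 233.5 and 277.2 CPM and then to 237.8 and 240.3 CPM, muscle markers to 16.4 and 18.6 CPM and then to 24.3 and 26.0 CPM, and no member of either list passed in edgeR (0.33 for Tubb3 and 0.58 for Acta1, the members with the smallest p). Sox10, Ckm and Myog were at 0 in all 4 libraries. The sum for adipocyte and chondrocyte markers went from 64.4 and 72.4 CPM to 260.4 and 260.3 CPM, nearly all of it Sox9, with 2 of 4 tested members higher, while Matn1 and Plin1 were at 0. In bulk RNA, more cells of a type and more RNA per cell cannot be told apart, and the part of such cells in the results was not tested. With each library left out in turn, the calls of Csf1r (0.93 to 1.17) and Cd68 (0.66 to 0.92) ended every time. By other settings, Csf1r (1.04) did not pass with DESeq2 and Cd68 (0.58) with library size only. With DESeq2 no epithelial marker was called.

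RSL3 changed 2692 of 12618 tested genes in pretreated cells (21.3%), with 1549 higher (12.3%) and 1143 lower (9.06%) at an adjusted p under 0.05. All adjusted p-values are from edgeR's quasi-likelihood test with the Benjamini-Hochberg method over all tested genes, and log2 changes are given with their standard errors. The rises were the larger changes: 390 genes rose by 2-fold or more (3.09%) and 251 fell as far (1.99%), 114 were higher and 25 lower at 4-fold or more, and 23 and 3 at 8-fold or more. The median log2 change of all tested genes was -0.006 and the median absolute change 0.26. Libraries of the groups did not overlap in 8559 genes (67.8%), far more than the 2692 called. A lack of overlap, given for genes below, therefore does not by itself mark a change. Genes called higher had a median level of 55.7 CPM over the 4 libraries, against 21.3 CPM for genes called lower and 22.9 CPM for genes not called. Scaling by library size alone moved all changes by -0.21 on the log2 scale, which gave 894 genes higher and 3066 lower, so the directions below are those relative to the bulk of genes after TMM scaling. Without 1 of the 4 libraries in turn, 655 to 836 genes were higher and 386 to 490 lower.

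**Figure D1:**
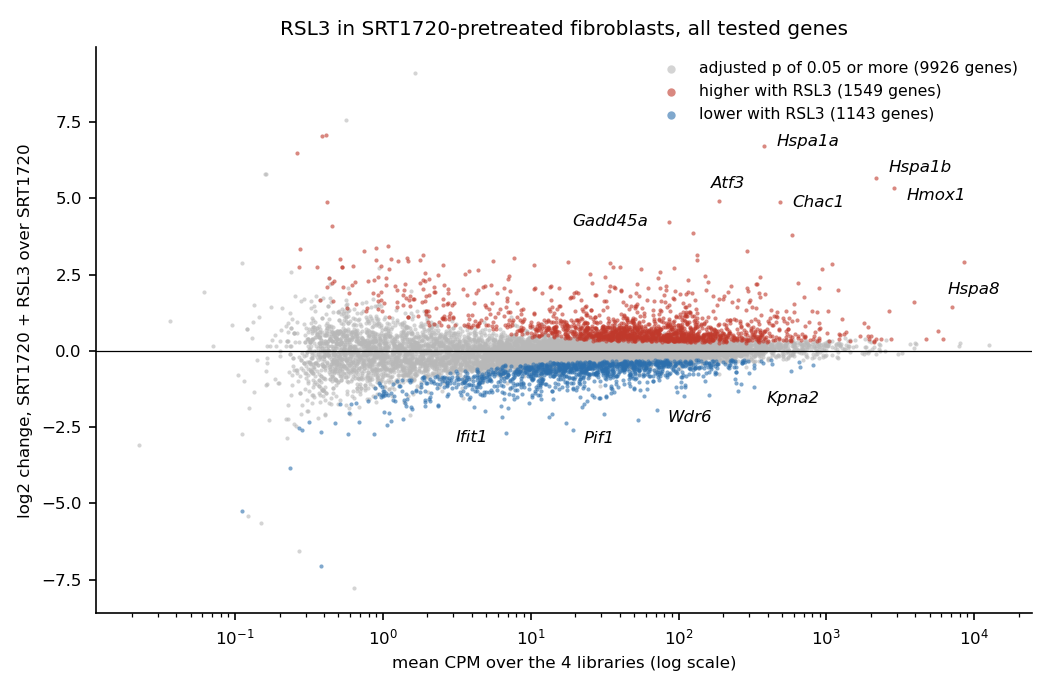
Each point is 1 of 12618 tested genes, with its mean CPM over the 4 libraries on a log axis and its log2 change after RSL3 on the other. Red marks the 1549 genes called higher and blue the 1143 called lower, with Hspa1a at 6.73 and Ifit1 at -2.70, while points at the far left rest on few counts.

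Of genes that averaged 5 CPM or more and whose groups did not overlap, HSP70 chaperone genes and Hmox1 had the largest rises. Here and below, levels with SRT1720 are those of its replicates 1 and 2, and levels after RSL3 those of SRT1720 plus RSL3 replicates 1 and 2. Hspa1a, an inducible HSP70 chaperone, was at 6.88 and 7.25 CPM with SRT1720 and 742 and 759 CPM after RSL3, a rise of 106-fold (log2 change 6.73 ± 0.23, adjusted p = 2.28e-07). Its near-identical copy Hspa1b was at 61.6 and 106 CPM with SRT1720 and 4357 and 4111 CPM after RSL3 (log2 change 5.65 ± 0.26, adjusted p = 1.44e-06). The 2 libraries of each group lay close together for Hspa1a and far from the other group, and the division of reads between these copies is uncertain. Hmox1, the heme oxygenase that frees iron from heme, was at 137 and 140.1 CPM with SRT1720 and 5579.9 and 5679.7 CPM after RSL3 (log2 change 5.35 ± 0.29, adjusted p = 3.32e-06). Atf3, a transcription factor of stress responses, was at 11.6 and 12.4 CPM with SRT1720 and 359 and 372 CPM after RSL3 (log2 change 4.93 ± 0.12, adjusted p = 2.3e-08). Chac1, which breaks down glutathione, was at 33.9 and 30.5 CPM with SRT1720 and 892 and 989 CPM after RSL3 (log2 change 4.87 ± 0.12, adjusted p = 2.3e-08). In each of these genes both RSL3 libraries stood far above both others. Gadd45a, a growth arrest gene of many stress pathways, was at 8.11 and 9.09 CPM with SRT1720 and 168 and 157 CPM after RSL3 (log2 change 4.24 ± 0.13, adjusted p = 7.71e-08). The pseudokinase gene Trib3 (3.85), the HSP40 gene Dnajb1 (3.80), the eIF2α phosphatase subunit Ppp1r15a (3.26), the mTORC1 inhibitor Ddit4 (3.14), the peptide hormone gene Adm2 (3.05) and the transcription factor Ddit3, also called CHOP (2.97), completed the 12 largest rises.

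The 12 largest falls under the same conditions were smaller. Ifit1, an interferon-induced RNA-binding protein, was at 12.9 and 10.7 CPM with SRT1720 and 1.79 and 1.82 CPM after RSL3 (log2 change -2.70 ± 0.34, adjusted p = 0.000619). Pif1, a DNA helicase, was at 35.2 and 31.0 CPM with SRT1720 and 4.54 and 6.37 CPM after RSL3 (log2 change -2.60 ± 0.18, adjusted p = 1.68e-05). Haspin, the kinase that marks histone H3 in mitosis, was at 21.5 and 22.2 CPM with SRT1720 and 5.09 and 4.65 CPM after RSL3 (log2 change -2.16 ± 0.17, adjusted p = 3.51e-05). As the conditions of choice required, all of these were lower in both RSL3 libraries than in either library without it. Chst12, a chondroitin sulfotransferase, was at 31.7 and 26.6 CPM with SRT1720 and 5.88 and 5.36 CPM after RSL3 (log2 change -2.37 ± 0.18, adjusted p = 2.46e-05). Pdgfb, a platelet-derived growth factor chain, was at 36.3 and 33.5 CPM with SRT1720 and 9.48 and 10.2 CPM after RSL3 (log2 change -1.82 ± 0.22, adjusted p = 0.000556), and Wdr6, a WD-repeat protein, at 117 and 112 CPM with SRT1720 and 28.8 and 30.8 CPM after RSL3 (log2 change -1.94 ± 0.21, adjusted p = 0.000234). The groups were apart in these genes too, by the same conditions. The others of the 12 were the chromatin gene Bahcc1 (-2.26), the SIN3 complex gene Sap25 (-2.17), the protocadherin Pcdh18 (-2.07), the peptide ligand Apln (-2.06), the zinc finger gene Zfp324 (-1.81) and the spindle gene Aspm (-1.74).

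**Figure D2:**
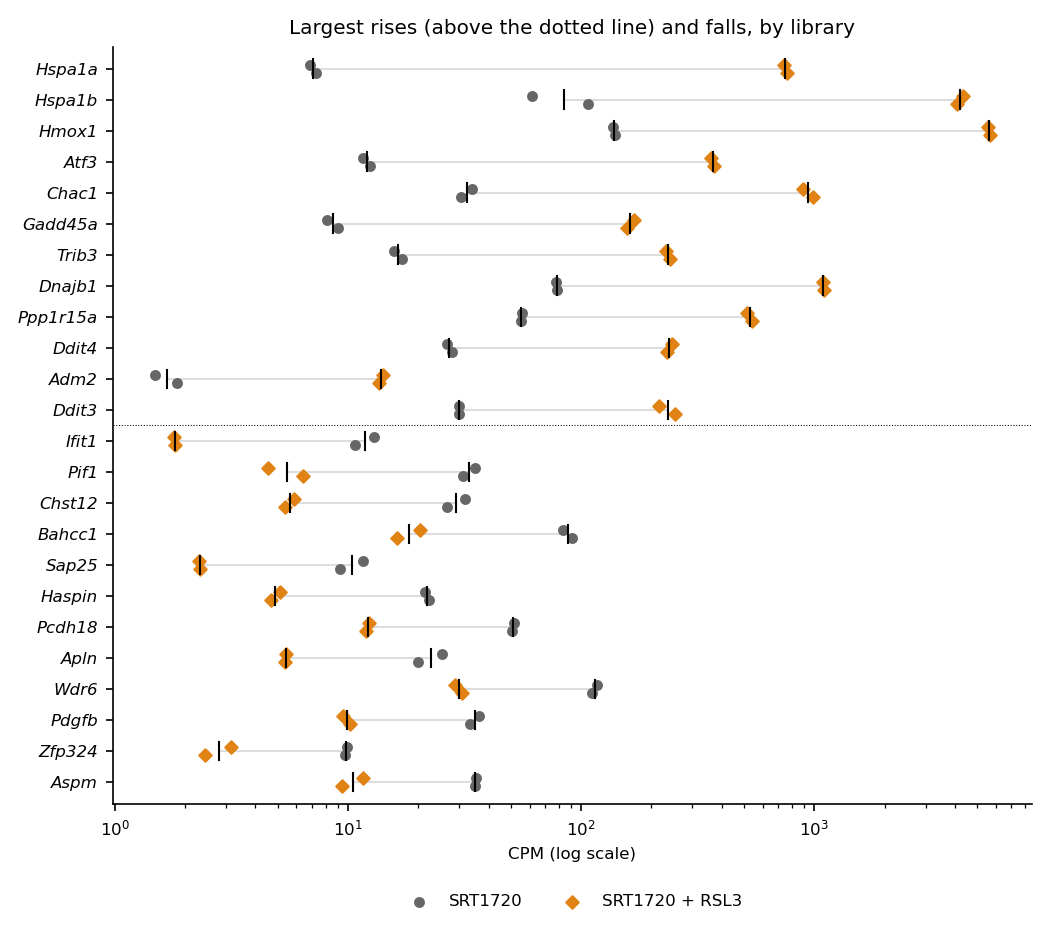
CPM on a log axis in each library for the 12 largest rises and the 12 largest falls, with circles for SRT1720, diamonds for SRT1720 plus RSL3 and vertical ticks for group means. The 24 genes were picked among those whose groups do not overlap, and Hspa1a spans from 6.88 to 759 CPM.

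Abundant genes were among the largest gains in CPM. Hspa8, the constitutive HSP70, was at 3527 and 3991 CPM with SRT1720 and 10010.0 and 10598 CPM after RSL3 (log2 change 1.45 ± 0.10, adjusted p = 1.19e-05). Ubb, which encodes ubiquitin, was at 1971 and 1957 CPM with SRT1720 and 5849 and 5968 CPM after RSL3 (log2 change 1.59 ± 0.10, adjusted p = 9.76e-06). Both genes were picked among those whose groups do not overlap. As ubiquitin genes share repeats, the division of reads among them is uncertain. The HSP90 gene Hsp90ab1 rose as well (0.66). Genes called higher gained 135782 CPM in all, while genes called lower lost 19796 CPM. The largest losses in CPM were those of the chromatin protein Hmga2 (-0.48), the calcium-binding S100a11 (-0.67), the nuclear import receptor Kpna2 (-1.17), the cytoskeletal linker Plec (-0.53), the chemokine Ccl2 (-1.31) and the neuron navigator gene Nav1 (-1.08). The call of Ccl2 (-1.15 to -1.46) ended with any 1 of the 4 libraries left out. Hmga2 lost its call without SRT1720 plus RSL3 replicate 1 (-0.49), without SRT1720 plus RSL3 replicate 2 (-0.46) and without SRT1720 replicate 1 (-0.35). Plec lost its call without SRT1720 plus RSL3 replicate 1 (-0.50) and without SRT1720 replicate 2 (-0.43). By other settings, Ccl2 (-1.31) did not pass with the robust option.

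Heat shock genes rose as a broad set. Of 30 heat shock chaperones and co-chaperones tested, 24 rose (80.0%), against 12.3% of all tested genes, with a median log2 change of 0.89 (-0.006 for all tested genes). Among the small heat shock proteins, Hspb1 was at 245 and 259 CPM with SRT1720 and 1472 and 1775 CPM after RSL3 (log2 change 2.69 ± 0.39, adjusted p = 0.00131). Cryab, the αB-crystallin, was at 22.7 and 19.6 CPM with SRT1720 and 116 and 139 CPM after RSL3 (log2 change 2.60 ± 0.52, adjusted p = 0.00653), and both genes were higher in each RSL3 library. Of the co-chaperones, Bag3, which links HSP70 to autophagy, was at 121 and 125 CPM with SRT1720 and 559.8 and 553 CPM after RSL3 (log2 change 2.18 ± 0.18, adjusted p = 4.08e-05). The HSP110 gene Hsph1 was at 199 and 252 CPM with SRT1720 and 1074 and 1054 CPM after RSL3 (log2 change 2.24 ± 0.21, adjusted p = 0.000109), and the HSP40 gene Dnajb4 at 17.3 and 15.3 CPM with SRT1720 and 71.0 and 59.8 CPM after RSL3 (log2 change 2.00 ± 0.13, adjusted p = 7.79e-06). The groups did not overlap in these genes. The HSP90 gene Hsp90aa1 (1.30) and the mitochondrial chaperonins Hspd1 (0.59) and Hspe1 (1.01), whose shared upstream region carries the element printed above, rose as well. Hsf1, the factor that drives these genes, was at 0.05 and did not pass, while its relative Hsf2 rose (0.74). Leaving out each library in turn, 19 to 22 members were called higher. Cryab lost its call without SRT1720 replicate 1 (2.70) and without SRT1720 replicate 2 (2.49).

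Genes of protein folding and degradation outside the heat shock list moved less. Of 8 subunits of CCT, the cytosolic chaperonin for actin and tubulin, Cct7 (0.36) and Cct5 (0.36) rose, and the list's median was 0.20, or -0.003 with library size only. Of 34 proteasome genes tested, 12 rose (35.3%, against 12.3% of all tested genes), with a median of 0.25. Adrm1, a ubiquitin receptor of the proteasome, was at 286 and 284 CPM with SRT1720 and 508 and 559.5 CPM after RSL3 (log2 change 0.90 ± 0.12, adjusted p = 0.000743). Psmd4 (0.68) and Psmd11 (0.57), subunits of the regulatory particle, also rose. When each of the 4 libraries was left out, 5 to 7 members were called higher. When scaled by library size only, 6 were higher and 1 lower. Of 9 ubiquitin genes tested, 4 rose (44.4%), among them Ubb and the shuttle factor Ubqln1 (0.63). Of 28 autophagy genes tested, 13 rose (46.4%), with a median of 0.33. Sqstm1, the receptor p62 that brings ubiquitinated cargo to autophagosomes, was at 479.9 and 490.2 CPM with SRT1720 and 1937 and 1910.0 CPM after RSL3 (log2 change 1.99 ± 0.09, adjusted p = 1.44e-06). Atg14, a subunit of the autophagy lipid kinase, was at 14.6 and 15.8 CPM with SRT1720 and 49.2 and 46.4 CPM after RSL3 (log2 change 1.65 ± 0.13, adjusted p = 4.16e-05), and the ATG8 family gene Gabarapl1 at 74.1 and 66.3 CPM with SRT1720 and 151 and 156 CPM after RSL3 (log2 change 1.13 ± 0.11, adjusted p = 0.000106). Both RSL3 libraries were above the others in each. The phosphoinositide-binding Wipi2 rose too (1.02). After removal of 1 library at a time, 7 to 9 members were called higher. By library size only, 9 were higher and 1 lower. With each library left out in turn, the calls of Cct7 (0.32 to 0.40) and Cct5 (0.29 to 0.44) ended every time. By other settings, Cct5 (0.28) did not pass with GC and length trends removed and Cct7 (0.16) and Cct5 (0.16) with library size only.

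The integrated stress response list had the highest share of rises among lists with 10 or more tested members. Of 41 genes of ATF4 and the integrated stress response tested, 35 rose (85.4%, against 12.3% of all tested genes) and 1 fell. The median was 1.27. Atf4 itself was at 506 and 501 CPM with SRT1720 and 1189 and 1238 CPM after RSL3 (log2 change 1.27 ± 0.10, adjusted p = 2.64e-05). Ppp1r15a, which leads the phosphatase that reverses eIF2α phosphorylation, was at 55.4 and 54.9 CPM with SRT1720 and 516 and 541 CPM after RSL3 (log2 change 3.26 ± 0.12, adjusted p = 3.26e-07). Ddit3 was at 30.0 and 29.9 CPM with SRT1720 and 216 and 253 CPM after RSL3 (log2 change 2.97 ± 0.13, adjusted p = 9.57e-07). All were higher in both RSL3 libraries. Cebpb, a C/EBP factor that pairs with ATF4, was at 69.5 and 109 CPM with SRT1720 and 339.5 and 345 CPM after RSL3 (log2 change 1.94 ± 0.17, adjusted p = 7.75e-05), with the SRT1720 libraries further apart than those after RSL3. Nupr1, a small stress-induced chromatin protein, was at 31.3 and 27.0 CPM with SRT1720 and 115 and 129 CPM after RSL3 (log2 change 2.06 ± 0.16, adjusted p = 3.24e-05), and Vldlr, a lipoprotein receptor, at 14.4 and 14.4 CPM with SRT1720 and 62.4 and 58.0 CPM after RSL3 (log2 change 2.06 ± 0.14, adjusted p = 1.46e-05). Nupr1, like Chac1 and Atf3, carries the element TTGCATCA printed above. Among amino acid genes, the asparagine synthetase gene Asns (1.02) and the transporter Slc7a5 (0.97) rose, and the cationic amino acid transporter Slc7a3 fell (-1.45). The eIF2α kinase genes Eif2ak1, Eif2ak3 and Eif2ak4 were at -0.17, -0.06 and -0.09 and did not pass. In fits without 1 of the libraries, 31 to 32 members were called higher. The call of Slc7a3 (-1.17 to -1.68) ended with any 1 of the 4 libraries left out. By other settings, Slc7a3 (-1.46) did not pass with DESeq2.

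Cytosolic tRNA synthetases charge tRNAs with amino acids and are in part ATF4 targets. Of 21 tested, 13 rose (61.9%, against 12.3% of all tested genes), with a median of 0.49. Aars, for alanine, was at 456 and 473 CPM with SRT1720 and 1135 and 1140.2 CPM after RSL3 (log2 change 1.29 ± 0.14, adjusted p = 0.000215), and Nars (0.96) and Sars (0.96), for asparagine and serine, rose as well. Those for aspartate and glutamine, Dars (-0.20) and Qars (-0.06), did not pass. With 1 of the 4 libraries left out, 8 to 9 members were called higher. The unfolded protein response of the ER, the endoplasmic reticulum, moved in few genes, with 5 of 25 higher (20%, against 12.3% of all genes). The list's median was 0.19, or -0.02 with library size only. Herpud1, a membrane protein of ER-associated degradation, was at 81.3 and 89.2 CPM with SRT1720 and 373 and 366 CPM after RSL3 (log2 change 2.12 ± 0.12, adjusted p = 4.09e-06). The ER co-chaperone Dnajb9 was at 14.1 and 11.5 CPM with SRT1720 and 62.3 and 49.0 CPM after RSL3 (log2 change 2.12 ± 0.16, adjusted p = 2.87e-05), and the ER HSP70 Hspa5, also called BiP, at 784 and 877 CPM with SRT1720 and 1764 and 1679 CPM after RSL3 (log2 change 1.05 ± 0.16, adjusted p = 0.00189). Both RSL3 libraries were above the others in all of them. The ER chaperones Hsp90b1 (0.19) and Hyou1 (0.02) and the disulfide isomerase Pdia4 (-0.01) did not pass.

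Immediate early genes respond to kinase signals without new protein synthesis. They rose in 31 of 42 tested members (73.8%, against 12.3% of all tested genes), with a median of 1.40. Of the AP-1 subunits, Fos was at 3.72 and 4.59 CPM with SRT1720 and 17.2 and 17.6 CPM after RSL3 (log2 change 2.06 ± 0.20, adjusted p = 0.000138). Jun was at 297 and 314 CPM with SRT1720 and 779 and 739.6 CPM after RSL3 (log2 change 1.31 ± 0.11, adjusted p = 6.95e-05), and the zinc finger factor Egr1 at 53.5 and 42.4 CPM with SRT1720 and 190.3 and 174 CPM after RSL3 (log2 change 1.92 ± 0.32, adjusted p = 0.00257). Fos was low in every library, and the groups did not overlap in any of these genes. Plk3, a stress-responsive polo-like kinase, was at 54.7 and 55.4 CPM with SRT1720 and 256 and 265 CPM after RSL3 (log2 change 2.24 ± 0.09, adjusted p = 4.61e-07), and Klf4, a Krüppel-like factor, at 32.2 and 33.0 CPM with SRT1720 and 136 and 126 CPM after RSL3 (log2 change 2.01 ± 0.09, adjusted p = 1.62e-06). Gadd45g rose (1.91) with Gadd45a, while their relative Gadd45b was at 0.33 and did not pass. Leaving out each library in turn, 28 to 29 members were called higher. Feedback inhibitors of MAP kinases rose in 13 of 21 tested members (61.9%, against 12.3% of all tested genes), with a median of 1.00. Of the 13, 5 are also on the immediate early list. Dusp1, a nuclear phosphatase of p38, JNK and ERK, was at 129 and 113 CPM with SRT1720 and 552 and 543 CPM after RSL3 (log2 change 2.18 ± 0.11, adjusted p = 2.82e-06). Dusp4 was at 44.3 and 47.9 CPM with SRT1720 and 266 and 245 CPM after RSL3 (log2 change 2.47 ± 0.14, adjusted p = 4.09e-06), and Dusp8, which acts on JNK and p38, at 20.9 and 22.8 CPM with SRT1720 and 82.6 and 79.7 CPM after RSL3 (log2 change 1.89 ± 0.10, adjusted p = 4.09e-06). The RSL3 libraries were the higher ones in each. Dusp6 and Dusp7, the cytoplasmic ERK phosphatases, were at 0.03 and -0.01 and did not pass.

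Of the NRF2 system, 14 of 30 tested genes rose (46.7%, against 12.3% of all tested genes), with a median of 0.41. Osgin1, an oxidative stress-induced growth inhibitor, was at 7.79 and 7.28 CPM with SRT1720 and 40.5 and 45.6 CPM after RSL3 (log2 change 2.51 ± 0.19, adjusted p = 2.87e-05). Srxn1, which repairs over-oxidized peroxiredoxins, was at 114 and 109.6 CPM with SRT1720 and 462 and 469.8 CPM after RSL3 (log2 change 2.06 ± 0.10, adjusted p = 1.72e-06), and the small MAF protein gene Maff, a partner of NRF2 on DNA, at 82.6 and 92.1 CPM with SRT1720 and 279 and 294 CPM after RSL3 (log2 change 1.71 ± 0.11, adjusted p = 7.39e-06). These rises were seen in both RSL3 libraries. Nfe2l2, which encodes NRF2, was at 77.0 and 79.0 CPM with SRT1720 and 132 and 128 CPM after RSL3 (log2 change 0.74 ± 0.10, adjusted p = 0.000769). Nqo1, a quinone reductase often used as an NRF2 readout, was at 0.25, Gsr at 0.07, G6pdx at 0.04 and Prdx1 at -0.32, and none of them passed. When each of the 4 libraries was left out, 11 to 12 members were called higher. Among enzymes of glutathione, thioredoxin and peroxiredoxins, 7 of 31 rose (22.6%) and 2 fell (6.45%), against 12.3% and 9.06% of all tested genes. The median was 0.05, or -0.16 with library size only. The rises were those of Chac1, Srxn1, Gclc, Gclm, Txnrd1, Sod1 (0.48) and Cat (0.45). Gclc and Gclm form the enzyme that limits glutathione synthesis. Gclc was at 68.2 and 67.8 CPM with SRT1720 and 162 and 149 CPM after RSL3 (log2 change 1.20 ± 0.17, adjusted p = 0.00115), and Gclm at 77.5 and 81.6 CPM with SRT1720 and 193 and 184 CPM after RSL3 (log2 change 1.24 ± 0.12, adjusted p = 0.000147). Txnrd1, the cytosolic thioredoxin reductase, was at 269 and 278 CPM with SRT1720 and 660.3 and 556 CPM after RSL3 (log2 change 1.15 ± 0.20, adjusted p = 0.0031). The 2 genes that fell were Gpx8 (-0.53), a peroxidase of the ER, and Glrx (-0.60), a glutaredoxin. The call of Cat (0.42 to 0.47) ended with any 1 of the 4 libraries left out. The calls of Gpx8 (-0.47) and Glrx (-0.57) ended without SRT1720 plus RSL3 replicate 1, and those of Sod1 (0.40) and Glrx (-0.63) without SRT1720 plus RSL3 replicate 2. The calls of Sod1 (0.42), Gpx8 (-0.49) and Glrx (-0.55) ended without SRT1720 replicate 1. By other settings, Sod1 (0.28) and Cat (0.24) did not pass with library size only.

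Gpx4, the target of RSL3, did not pass, with 338 and 376 CPM with SRT1720 and 353 and 386 CPM after RSL3 (log2 change 0.05 ± 0.12, adjusted p = 0.814). Its groups overlapped. The change was -0.16 with library size only, -0.024 without SRT1720 replicate 1, -0.015 without SRT1720 plus RSL3 replicate 2 and -0.036 with GC and length trends removed. Of 32 ferroptosis suppressors tested, 14 rose (43.8%, against 12.3% of all tested genes) and 1 fell, with a median of 0.31. Slc7a11, the light chain of the cystine importer system xc-, was at 10.5 and 9.57 CPM with SRT1720 and 59.8 and 48.1 CPM after RSL3 (log2 change 2.43 ± 0.16, adjusted p = 9.62e-06). Its heavy chain Slc3a2 was at 336 and 307 CPM with SRT1720 and 1061 and 1123 CPM after RSL3 (log2 change 1.76 ± 0.10, adjusted p = 4.27e-06). Both subunits were higher in each RSL3 library. Aifm2, which encodes FSP1, was at 0.10, Dhodh at -0.32 and Gch1 at 0.88, and none of these GPX4-independent suppressors passed. After removal of 1 library at a time, 9 members were called higher. With scaling by library size only, 9 were higher and 5 lower. Of 14 suppressor genes that rose, 7 are also on the NRF2 list, and Hspb1, Slc3a2 and Hspa5 on the heat shock, ATF4 and ER lists.

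Of 33 ferroptosis drivers tested, 9 rose (27.3%) and 3 fell (9.09%), against 12.3% and 9.06% of all tested genes. The median was 0.07, or -0.14 with library size only. Besides Hmox1 and Chac1, Sat1, which acetylates polyamines, was at 71.7 and 71.9 CPM with SRT1720 and 173 and 165 CPM after RSL3 (log2 change 1.23 ± 0.10, adjusted p = 3.58e-05). The lipoxygenase Aloxe3 (1.43), the NRF2 antagonist Bach1 (0.80) and the oxidoreductases Cyb5r1 (0.89) and Por (0.60) rose, while the lipoxygenase Alox15 fell (-1.02). Acsl4, which charges polyunsaturated fatty acids for membrane lipids, was at 46.7 and 47.8 CPM with SRT1720 and 51.2 and 44.7 CPM after RSL3 (log2 change 0.02 ± 0.12, adjusted p = 0.922). Its groups overlapped, and the change was -0.18 with library size only and -0.081 without SRT1720 plus RSL3 replicate 1. The acyltransferase Lpcat3 was at -0.25 and did not pass. In fits without 1 of the libraries, 4 to 6 members were called higher, and the calls of all 3 lower members ended each time. When scaled by library size only, 6 were higher and 10 lower. Ptgs2, the inducible cyclooxygenase often used as a marker of ferroptosis, was at 349.9 and 333 CPM with SRT1720 and 1562 and 1320.4 CPM after RSL3 (log2 change 2.08 ± 0.14, adjusted p = 9.75e-06), with both RSL3 libraries far above the others. Of 8 prostaglandin genes, the receptor Ptger4 (1.15) and the synthase Ptges3 (0.39) rose with it and the synthase Ptges fell (-0.79). With each library left out in turn, the calls of Aloxe3 (1.35 to 1.50), Por (0.53 to 0.68), Alox15 (-0.86 to -1.16) and Ptges3 (0.38 to 0.40) ended every time. The calls of Bach1 (0.64), Ptger4 (0.96) and Ptges (-0.68) ended without SRT1720 plus RSL3 replicate 1, and those of Bach1 (0.79), Ptger4 (1.16) and Ptges (-0.80) without SRT1720 replicate 1. The calls of Bach1 (0.81), Ptger4 (1.13) and Ptges (-0.79) ended without SRT1720 replicate 2. By other settings, Alox15 (-1.02) did not pass with DESeq2 and Por (0.40) and Ptges3 (0.19) with library size only.

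In iron handling, 4 of 27 tested genes rose (14.8%) and 3 fell (11.1%), near the 12.3% and 9.06% of all tested genes. The median was 0.07, or -0.14 with library size only. The exporter ferroportin, Slc40a1, rose (1.12), and Slc48a1, which moves heme out of lysosomes, was at 245 and 214 CPM with SRT1720 and 367 and 405 CPM after RSL3 (log2 change 0.75 ± 0.14, adjusted p = 0.00406). Fth1, the ferritin heavy chain, was at 1138 and 1001 CPM with SRT1720 and 1617 and 1647 CPM after RSL3 (log2 change 0.61 ± 0.16, adjusted p = 0.0214). Ftl1, the light chain, was at 2333 and 2079 CPM with SRT1720 and 2629 and 3055 CPM after RSL3 (log2 change 0.37 ± 0.16, adjusted p = 0.128), and did not pass. Its groups did not overlap, as in 67.8% of all tested genes. Tfrc, the transferrin receptor that brings iron in, was at 202 and 193 CPM with SRT1720 and 147 and 125 CPM after RSL3 (log2 change -0.54 ± 0.15, adjusted p = 0.0253). Ireb2, an iron regulatory protein that binds ferritin and transferrin receptor mRNA, was at 52.2 and 48.1 CPM with SRT1720 and 27.0 and 23.5 CPM after RSL3 (log2 change -0.99 ± 0.21, adjusted p = 0.00919). The third gene that fell was the divalent metal transporter Slc11a2 (-0.40). With 1 of the 4 libraries left out, 1 to 2 members were called higher and 0 to 1 members were called lower. By library size only, 2 were higher and 7 lower. Zinc and metallothionein genes gave 4 of 20 higher and 3 lower, where 12.3% and 9.06% of all tested genes were. Leaving out each library in turn, 3 to 4 members were called higher and 2 members were called lower. With scaling by library size only, 4 were higher and 9 lower. The metal-binding Mt1 was at 371 and 339 CPM with SRT1720 and 751 and 952 CPM after RSL3 (log2 change 1.26 ± 0.19, adjusted p = 0.00161) and Mt2 at 192 and 174 CPM with SRT1720 and 421 and 549 CPM after RSL3 (log2 change 1.41 ± 0.26, adjusted p = 0.00424), and the zinc exporter Slc30a1 at 12.5 and 12.8 CPM with SRT1720 and 37.8 and 32.2 CPM after RSL3 (log2 change 1.47 ± 0.20, adjusted p = 0.000942). Their groups were apart. The zinc-sensing factor Mtf1 rose as well (0.76), and the importer Slc39a10 fell (-1.52). The calls of Slc40a1 (0.96 to 1.28), Fth1 (0.52 to 0.71), Tfrc (-0.43 to -0.67) and Ireb2 (-0.89 to -1.10) ended with any 1 of the 4 libraries left out. Without SRT1720 plus RSL3 replicate 1, Slc11a2 (-0.41) did not pass, nor did Slc11a2 (-0.40) without SRT1720 plus RSL3 replicate 2. Without SRT1720 replicate 1, Slc11a2 (-0.29) did not pass, nor did Slc48a1 (0.66) and Mt2 (1.34) without SRT1720 replicate 2. Slc40a1 (0.92 to 1.12) did not pass in 8 of the other settings either. By other settings, Fth1 (0.40) did not pass with library size only.

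**Figure D3:**
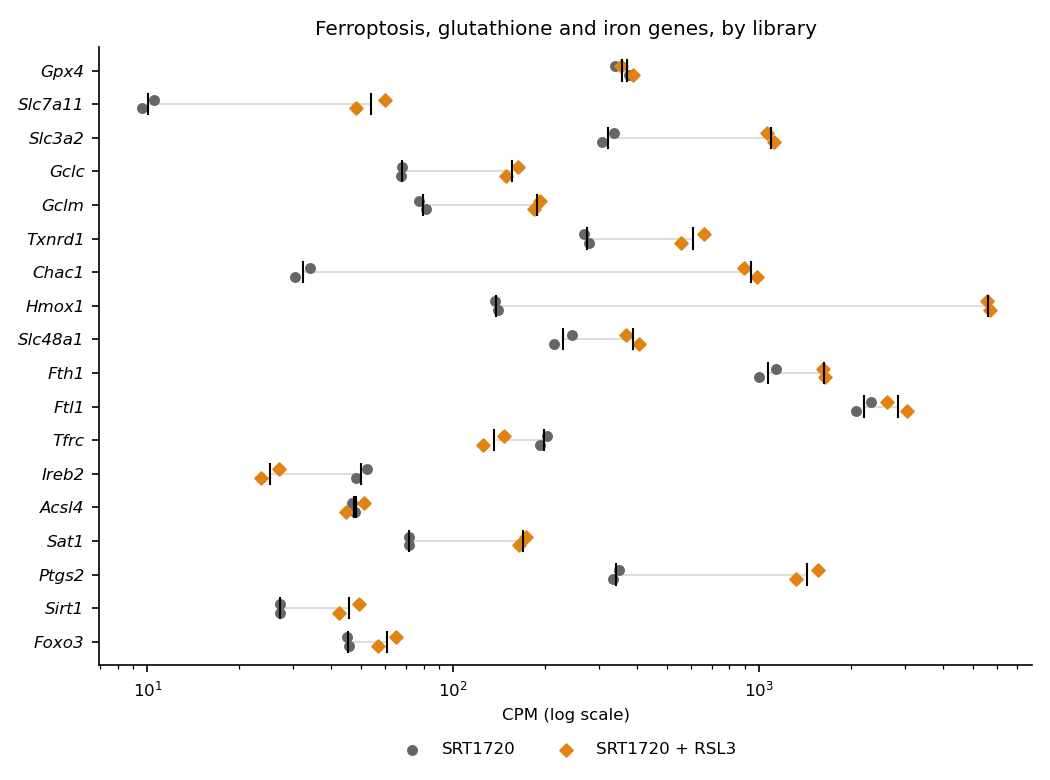
CPM on a log axis in each library for 18 genes of ferroptosis, glutathione, iron and SIRT1 pathways, with circles for SRT1720, diamonds for SRT1720 plus RSL3 and ticks for group means. The groups overlap in Gpx4 (338 to 386 CPM over all libraries) and Acsl4, while Chac1, Hmox1 and Slc7a11 are far apart.

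SRT1720 is marketed for its action on SIRT1, and FOXO factors are among its substrates. Sirt1 was at 27.1 and 27.2 CPM with SRT1720 and 49.2 and 42.3 CPM after RSL3 (log2 change 0.75 ± 0.13, adjusted p = 0.00324), higher in both RSL3 libraries. Of the other sirtuins, Sirt3 (0.58) and Sirt7 (-0.28) did not pass. Nnmt, which methylates nicotinamide, was the only other gene of 20 in the sirtuin and NAD list that rose (1.15). The 2 genes that rose were 10% of the list's tested members, against 12.3% of all tested genes. Foxo3 was at 45.1 and 45.7 CPM with SRT1720 and 65.1 and 56.7 CPM after RSL3 (log2 change 0.43 ± 0.12, adjusted p = 0.0351), a small rise without overlap. Of 30 FOXO factors and their targets tested, 19 rose (63.3%) and 1 fell, with a median of 0.49. Gadd45a led them, followed by the cyclin-dependent kinase inhibitor Cdkn1a, at 129 and 116 CPM with SRT1720 and 369 and 402 CPM after RSL3 (log2 change 1.65 ± 0.13, adjusted p = 2.77e-05), and the antiproliferative gene Btg1, at 154 and 166 CPM with SRT1720 and 411 and 405 CPM after RSL3 (log2 change 1.35 ± 0.10, adjusted p = 1.83e-05). The stress genes Gadd45a and Cdkn1a also stand on other lists. Fbxo32 (0.10), Sod2 (0.07) and Cdkn1b (0.23), often given as FOXO targets, did not pass. When each of the 4 libraries was left out, 10 to 12 members were called higher. When scaled by library size only, 13 were higher and 2 lower. Leaving out any 1 of the 4 libraries ended the call of Foxo3 (0.32 to 0.52). By other settings, Foxo3 (0.22) did not pass with library size only.

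Of p53 and its targets 10 of 27 rose (37.0%) and 3 fell (11.1%), against 12.3% and 9.06% of all tested genes. The median was 0.20, or -0.002 with library size only. Sesn2, a leucine sensor that restrains mTORC1, was at 23.3 and 25.7 CPM with SRT1720 and 169 and 156 CPM after RSL3 (log2 change 2.73 ± 0.14, adjusted p = 2.24e-06). Btg2 was at 14.6 and 13.1 CPM with SRT1720 and 53.9 and 53.6 CPM after RSL3 (log2 change 1.95 ± 0.12, adjusted p = 5.64e-06), and the polo-like kinase Plk2 at 149 and 145 CPM with SRT1720 and 572 and 533 CPM after RSL3 (log2 change 1.91 ± 0.12, adjusted p = 6.09e-06). Each was higher in both RSL3 libraries. Btg2 and Plk2 are also on the immediate early list and Sesn2 on the ATF4 list. After removal of 1 library at a time, 9 members were called higher and 0 to 2 members were called lower. By library size only, 10 were higher and 7 lower. The ubiquitin ligase Mdm2 rose (0.87), whereas Ccng1 (-0.49), Ei24 (-0.60) and Sesn1 (-0.65) fell, and Ddb2 (0.20), Aen (0.14) and Trp53 itself (0.11) did not pass. In the BCL2 family 4 of 17 genes rose (23.5%, against 12.3% of all tested genes) and 2 fell (11.8%, against 9.06%), with a median of -0.05. With 1 library left out, 2 to 3 were called higher. The genes that rose included 3 of the BH3-only class, namely Pmaip1, also called NOXA, at 5.02 and 5.12 CPM with SRT1720 and 20.6 and 16.8 CPM after RSL3 (log2 change 1.88 ± 0.15, adjusted p = 3.5e-05), Bbc3, also called PUMA (1.22), and Bcl2l11, also called BIM (0.55). The survival gene Mcl1 rose too (0.56), and Bcl2 (-0.96) and Bak1 (-0.31) fell. With each library left out in turn, the calls of Ccng1 (-0.42 to -0.55), Mcl1 (0.50 to 0.61) and Bak1 (-0.28 to -0.35) ended every time. Without SRT1720 plus RSL3 replicate 1, Ei24 (-0.48), Sesn1 (-0.49), Bcl2l11 (0.47) and Bcl2 (-0.87) did not pass, nor did Bcl2 (-1.06) without SRT1720 plus RSL3 replicate 2. Without SRT1720 replicate 1, Ei24 (-0.49), Sesn1 (-0.58), Bcl2l11 (0.59) and Bcl2 (-0.75) did not pass, nor did Sesn1 (-0.71) and Bcl2l11 (0.51) without SRT1720 replicate 2. By other settings, Mcl1 (0.55) did not pass with RLE size factors, Mcl1 (0.35) with library size only and Mcl1 (0.56) with the robust option.

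Lipid genes moved little as lists, with larger changes in single members. Of 32 genes of the carnitine shuttle and fatty acid oxidation, 4 fell and 1 rose, with a median of -0.10, and the share lower (12.5%) was near that of all genes (9.06%). In fits without 1 of the libraries, 1 to 3 members were called lower. With scaling by library size only, 13 were lower. The genes that fell were Acox3 (-0.72), Acadm (-0.75), Cpt2 (-0.69) and Mlycd (-1.22), a malonyl-CoA decarboxylase. Cpt1a, the carnitine acyltransferase that admits fatty acids to mitochondria, was at 29.5 and 28.1 CPM with SRT1720 and 25.2 and 25.0 CPM after RSL3 (log2 change -0.20 ± 0.14, adjusted p = 0.35) and did not pass. Among 14 PPAR and PGC-1 genes, Acot2, a mitochondrial acyl-CoA thioesterase, was at 3.90 and 4.48 CPM with SRT1720 and 29.8 and 33.9 CPM after RSL3 (log2 change 2.93 ± 0.15, adjusted p = 2.82e-06). Its RSL3 libraries were far above the others, and the division of reads with its close relative Acot1 (0.05) is uncertain. The co-repressor Nrip1 rose (0.76) and the co-activator Ppargc1b fell (-1.16). In fatty acid synthesis, Scd2, a stearoyl-CoA desaturase, was at 335 and 328 CPM with SRT1720 and 167 and 150.3 CPM after RSL3 (log2 change -1.06 ± 0.09, adjusted p = 6.42e-05), and the elongase Elovl6 at 65.9 and 59.1 CPM with SRT1720 and 30.0 and 30.2 CPM after RSL3 (log2 change -1.06 ± 0.16, adjusted p = 0.00163). The groups did not overlap in either. Scd1, the other desaturase, was at 130.1 and 132 CPM with SRT1720 and 117 and 103 CPM after RSL3 (log2 change -0.25 ± 0.13, adjusted p = 0.188) and did not pass, and it passed with library size only (-0.46) and in the 4 libraries on their own (-0.26). The elongase Elovl3 rose from a low level, with 1.25 and 0.882 CPM with SRT1720 and 6.58 and 5.76 CPM after RSL3 (log2 change 2.53 ± 0.27, adjusted p = 0.000252). For glycerolipids, the acyltransferase Gpam fell (-1.18), and Dgat2 (0.76) and Lpin2 (0.59) rose. In cholesterol synthesis 3 of 28 genes rose (10.7%, against 12.3% of all tested genes) and 4 fell (14.3%, against 9.06%). With 1 of the 4 libraries left out, 1 to 3 members were called higher and 1 to 2 members were called lower. When scaled by library size only, 2 were higher and 12 lower. With GC and length trends removed, 9 were lower. Insig1, which holds back SREBP factors, was at 64.2 and 70.4 CPM with SRT1720 and 154 and 135 CPM after RSL3 (log2 change 1.10 ± 0.10, adjusted p = 0.000103). The call of Ppargc1b (-1.13 to -1.20) ended with any 1 of the 4 libraries left out. The calls of Cpt2 (-0.71), Nrip1 (0.49) and Lpin2 (0.49) ended without SRT1720 plus RSL3 replicate 1, and those of Acadm (-0.64), Cpt2 (-0.68) and Mlycd (-1.11) without SRT1720 plus RSL3 replicate 2. The calls of Mlycd (-1.27), Nrip1 (0.74), Dgat2 (0.74) and Lpin2 (0.54) ended without SRT1720 replicate 1, and those of Cpt2 (-0.58), Mlycd (-1.16) and Nrip1 (0.79) without SRT1720 replicate 2.

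Hypoxia and glycolysis genes gave 6 of 36 higher (16.7%) and 2 lower (5.56%), where 12.3% and 9.06% of all tested genes were. The median was 0.08, or -0.13 with library size only. Ndrg1, a stress gene also on the ATF4 list, was at 78.1 and 73.8 CPM with SRT1720 and 262 and 269 CPM after RSL3 (log2 change 1.81 ± 0.12, adjusted p = 9.76e-06). Vegfa, the vascular growth factor, was at 263 and 282 CPM with SRT1720 and 666 and 645 CPM after RSL3 (log2 change 1.27 ± 0.11, adjusted p = 6.95e-05), and the glucose transporter Slc2a1 at 130.0 and 120.3 CPM with SRT1720 and 201 and 210.4 CPM after RSL3 (log2 change 0.72 ± 0.10, adjusted p = 0.00128). The groups were apart in all of them. The HIF targets Pdk1 (-0.31), Bnip3 (-0.03) and Ldha (-0.15) did not pass, and the prolyl hydroxylase Egln1 fell (-0.44). The other lower call of the list, not named here, was a fall of 2-fold or more. Both lower calls ended with any 1 library left out. Of 40 subunits of the respiratory chain and ATP synthase, Cox5b alone rose (0.43), with a median of 0.0001, or -0.21 with library size only. With library size only 10 of the 40 were lower, and with GC and length trends removed 4 were. Leaving out any 1 of the 4 libraries ended the calls of Egln1 (-0.38 to -0.50) and Cox5b (0.35 to 0.51). By other settings, Cox5b (0.22) did not pass with library size only.

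Cell cycle genes split in direction. Of 48 tested, 22 fell (45.8%) and 11 rose (22.9%), against 9.06% and 12.3% of all tested genes, with a median of -0.27. Several genes of mitosis fell. Plk1, the main polo-like kinase of mitosis, was at 169 and 152 CPM with SRT1720 and 52.7 and 60.9 CPM after RSL3 (log2 change -1.50 ± 0.13, adjusted p = 7.37e-05). Ccnb1, cyclin B1, was at 159.6 and 147 CPM with SRT1720 and 70.2 and 66.4 CPM after RSL3 (log2 change -1.17 ± 0.18, adjusted p = 0.00165), and both were lower in each RSL3 library. Aurka (-0.70), Bub1b (-0.77), Kif11 (-0.76) and Cenpf (-0.70) fell as well. Ccnd1, cyclin D1 of the G1 phase, was at 239 and 232 CPM with SRT1720 and 89.3 and 84.5 CPM after RSL3 (log2 change -1.44 ± 0.11, adjusted p = 2.6e-05). Several genes of replication licensing rose. Cdt1, which loads the MCM helicase on DNA, was at 164 and 176 CPM with SRT1720 and 455 and 458 CPM after RSL3 (log2 change 1.42 ± 0.13, adjusted p = 7.41e-05), and the helicase subunit Mcm5 at 282 and 306 CPM with SRT1720 and 456 and 471 CPM after RSL3 (log2 change 0.66 ± 0.10, adjusted p = 0.00155). The groups did not overlap in these genes either. Cdc6 (0.77), Mcm3 (0.49), Mcm6 (0.44), Pcna (0.46) and E2f1 (0.53) rose with them, while Mcm7 was at -0.24 and did not pass. Leaving out each library in turn, 5 to 8 members were called higher and 13 to 16 members were called lower. Kinesin genes, picked by their Kif symbols, were lower in 10 of 32 tested (31.25%) and higher in 2 (6.25%). The shares of all tested genes were 9.06% and 12.3%. Of 12 replication-dependent histone genes, whose mRNAs mostly lack a poly(A) tail, H2ac24 (-0.71) and H2bc21 (-1.32) fell. With each library left out in turn, the calls of E2f1 (0.47 to 0.60) and H2bc21 (-1.09 to -1.51) ended every time. The calls of Mcm6 (0.41) and H2ac24 (-0.57) ended without SRT1720 plus RSL3 replicate 1, and that of Pcna (0.44) without SRT1720 plus RSL3 replicate 2. The calls of Mcm3 (0.44), Mcm6 (0.40) and Pcna (0.46) ended without SRT1720 replicate 1, and that of Pcna (0.46) without SRT1720 replicate 2. By other settings, H2bc21 (-1.33) did not pass with DESeq2 and Mcm6 (0.23) and E2f1 (0.33) with library size only.

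Targets of YAP and TEAD, readouts of cell spreading and contact, were higher in 6 (25.0%) and lower in 3 (12.5%) of 24. The shares of all tested genes were 12.3% and 9.06%. When each of the 4 libraries was left out, 3 to 6 members were called higher and 3 members were called lower. By library size only, 4 were higher and 9 lower. Ccn2, a matricellular protein also called CTGF, was at 592 and 579.5 CPM with SRT1720 and 1555 and 1377 CPM after RSL3 (log2 change 1.32 ± 0.12, adjusted p = 0.000109), and Ccn1, also called CYR61, at 1257 and 1257 CPM with SRT1720 and 2363 and 2325 CPM after RSL3 (log2 change 0.90 ± 0.09, adjusted p = 0.000205). Ajuba, a LIM protein of cell junctions, was at 146 and 144 CPM with SRT1720 and 65.2 and 63.0 CPM after RSL3 (log2 change -1.18 ± 0.11, adjusted p = 0.000131). Ccn1 and Ccn2 were higher and Ajuba lower in both RSL3 libraries. Matrix and myofibroblast genes changed in few members. Of 45 tested, 3 rose (6.67%) and 3 fell (6.67%), both below the shares of all genes. After removal of 1 library at a time, 2 members were called higher and 0 to 1 members were called lower. With scaling by library size only, 2 were higher and 9 lower. The collagens Col1a1 (-0.05) and Col1a2 (-0.24) and the actin Acta2 (-0.04) did not pass. The metalloproteinase inhibitor Timp3 rose (1.07). Of 22 genes of TGF-beta and BMP feedback 9 rose (40.9%) and 1 fell (4.55%), against 12.3% and 9.06% of all tested genes. The median was 0.36. The inhibitory SMAD gene Smad7 was at 51.2 and 49.4 CPM with SRT1720 and 124 and 127 CPM after RSL3 (log2 change 1.32 ± 0.21, adjusted p = 0.00204), and Tgif1, a repressor of SMAD targets, at 72.4 and 64.5 CPM with SRT1720 and 164 and 168 CPM after RSL3 (log2 change 1.28 ± 0.11, adjusted p = 7.55e-05). Both groups stayed apart. The activin subunits moved in opposite directions, with Inhba higher (0.98) and Inhbb lower (-0.86), and the BMP target Id1 rose (0.72). The receptor Tgfbr2 fell (-0.61). In fits without 1 of the libraries, 4 to 6 members were called higher. Among 27 actin and SRF genes 3 rose (11.1%), near the 12.3% of all tested genes. These were the LIM proteins Fhl2 (0.95), Zyx (0.79) and Pdlim7 (0.62), while Actb (-0.10) and Srf (0.07) did not pass. Without SRT1720 plus RSL3 replicate 1, Inhbb (-0.84) did not pass, nor did Inhbb (-0.88), Tgfbr2 (-0.48) and Zyx (0.74) without SRT1720 plus RSL3 replicate 2. Without SRT1720 replicate 2, Inhbb (-0.74), Zyx (0.71) and Pdlim7 (0.58) did not pass.

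Interferon-stimulated genes were lower as a list. Of 28 interferon-stimulated genes tested, 12 fell (42.9%), against 9.06% of all tested genes, with a median of -0.61. Besides Ifit1, Parp14, a mono-ADP-ribosyltransferase, was at 8.42 and 7.32 CPM with SRT1720 and 1.80 and 2.22 CPM after RSL3 (log2 change -1.97 ± 0.29, adjusted p = 0.00137). The transcription factor Stat2 was at 23.2 and 20.2 CPM with SRT1720 and 11.8 and 11.3 CPM after RSL3 (log2 change -0.91 ± 0.19, adjusted p = 0.00771), and the antiviral enzyme Rsad2, also called viperin, at 1.19 and 1.10 CPM with SRT1720 and 0.299 and 0.152 CPM after RSL3 (log2 change -2.33 ± 0.50, adjusted p = 0.0096). All were lower in both RSL3 libraries, and Rsad2 rested on low counts in every library. Irf9 (-0.70) and Ddx58 (-0.86), which encodes RIG-I, fell too, while Isg15 (0.01), Irf7 (-0.03) and Bst2 (0.12) did not pass. With 1 of the 4 libraries left out, 3 to 4 members were called lower. Inflammatory genes of NF-kB went both ways, with 8 of 28 higher (28.6%) and 9 lower (32.1%) and a median of -0.15. Of all tested genes, 12.3% were higher and 9.06% lower. Vcam1, an adhesion molecule, was at 87.9 and 84.8 CPM with SRT1720 and 31.8 and 30.4 CPM after RSL3 (log2 change -1.47 ± 0.14, adjusted p = 0.000119). Irf1, which links inflammatory and interferon signals, was at 41.6 and 44.9 CPM with SRT1720 and 14.5 and 15.3 CPM after RSL3 (log2 change -1.54 ± 0.18, adjusted p = 0.000436), and the inhibitor Nfkbia, an early NF-kB target, at 160.2 and 167 CPM with SRT1720 and 114 and 109 CPM after RSL3 (log2 change -0.55 ± 0.15, adjusted p = 0.0286). These were lower in both RSL3 libraries, as were Birc3 (-1.44), Nfkbie (-1.46) and Cxcl5 (-2.44). The cytokine Il11 was at 3.02 and 3.71 CPM with SRT1720 and 11.3 and 9.79 CPM after RSL3 (log2 change 1.65 ± 0.22, adjusted p = 0.000872), and the deubiquitinase Tnfaip3, also called A20, at 37.6 and 37.5 CPM with SRT1720 and 65.9 and 60.1 CPM after RSL3 (log2 change 0.75 ± 0.16, adjusted p = 0.00903), both higher. Leaving out each library in turn, 1 to 4 members were called higher and 3 to 5 members were called lower. Of 7 genes of the aryl hydrocarbon receptor, Tiparp (0.76) and Nfe2l2 rose, and Cyp1b1 was at 0.42 and did not pass. Leaving out any 1 of the 4 libraries ended the calls of Rsad2 (-1.93 to -2.89), Ddx58 (-0.78 to -0.95), Nfkbia (-0.52 to -0.59) and Cxcl5 (-2.33 to -2.56). The calls of Stat2 (-0.94), Irf9 (-0.56), Nfkbie (-1.37) and Tnfaip3 (0.68) ended without SRT1720 plus RSL3 replicate 1, and that of Stat2 (-0.88) without SRT1720 plus RSL3 replicate 2. The calls of Stat2 (-0.80), Irf9 (-0.70) and Tnfaip3 (0.75) ended without SRT1720 replicate 1, and those of Irf9 (-0.69) and Tnfaip3 (0.74) without SRT1720 replicate 2. By other settings, Cxcl5 (-2.38) did not pass with limma-voom.

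Some ribosomal protein genes rose by small amounts, and because of their many pseudogenes the assignment of reads to them is uncertain. Of 54 ribosomal protein genes tested, 15 rose (27.8%, against 12.3% of all tested genes). The median was 0.29, or 0.09 with library size only. Rps20 was at 383 and 343 CPM with SRT1720 and 569 and 615 CPM after RSL3 (log2 change 0.71 ± 0.12, adjusted p = 0.00253). Rpl19 was at 1014 and 949 CPM with SRT1720 and 1354 and 1523 CPM after RSL3 (log2 change 0.55 ± 0.09, adjusted p = 0.00317). The group values were apart by less than 2-fold in both genes. Replicate 2 exceeded replicate 1 in the list's median by 0.17 after RSL3 and by 0.07 with SRT1720, and the part of this in the change was not tested. When each of the 4 libraries was left out, 2 to 9 members were called higher. When scaled by library size only, 2 were higher. Among 42 genes of ribosome assembly 4 rose (9.52%) and 2 fell (4.76%), below the 12.3% and 9.06% of all tested genes. The nucleolar Nop58 (0.71) and Nop14 (0.59) were among those that rose, and the helicase Ddx28 fell (-0.67). With each library left out in turn, the call of Ddx28 (-0.65 to -0.69) ended every time. Nop14 lost its call without SRT1720 plus RSL3 replicate 2 (0.55), without SRT1720 replicate 1 (0.56) and without SRT1720 replicate 2 (0.62). Nop58 lost its call without SRT1720 replicate 1 (0.75) and without SRT1720 replicate 2 (0.68).

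**Figure D4:**
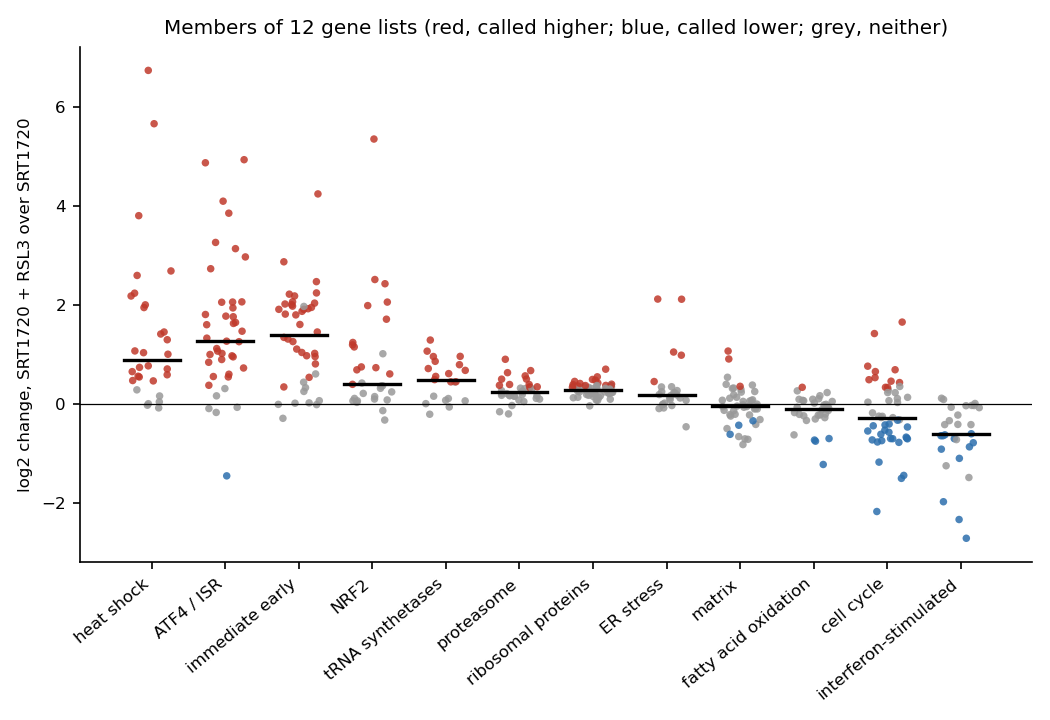
Each point is a tested member of 1 of 12 gene lists, with its log2 change on the vertical axis, red where called higher, blue where called lower and grey where neither, and bars at the list medians. The medians run from 1.40 for immediate early genes to -0.61 for interferon-stimulated genes.

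**Figure D5:**
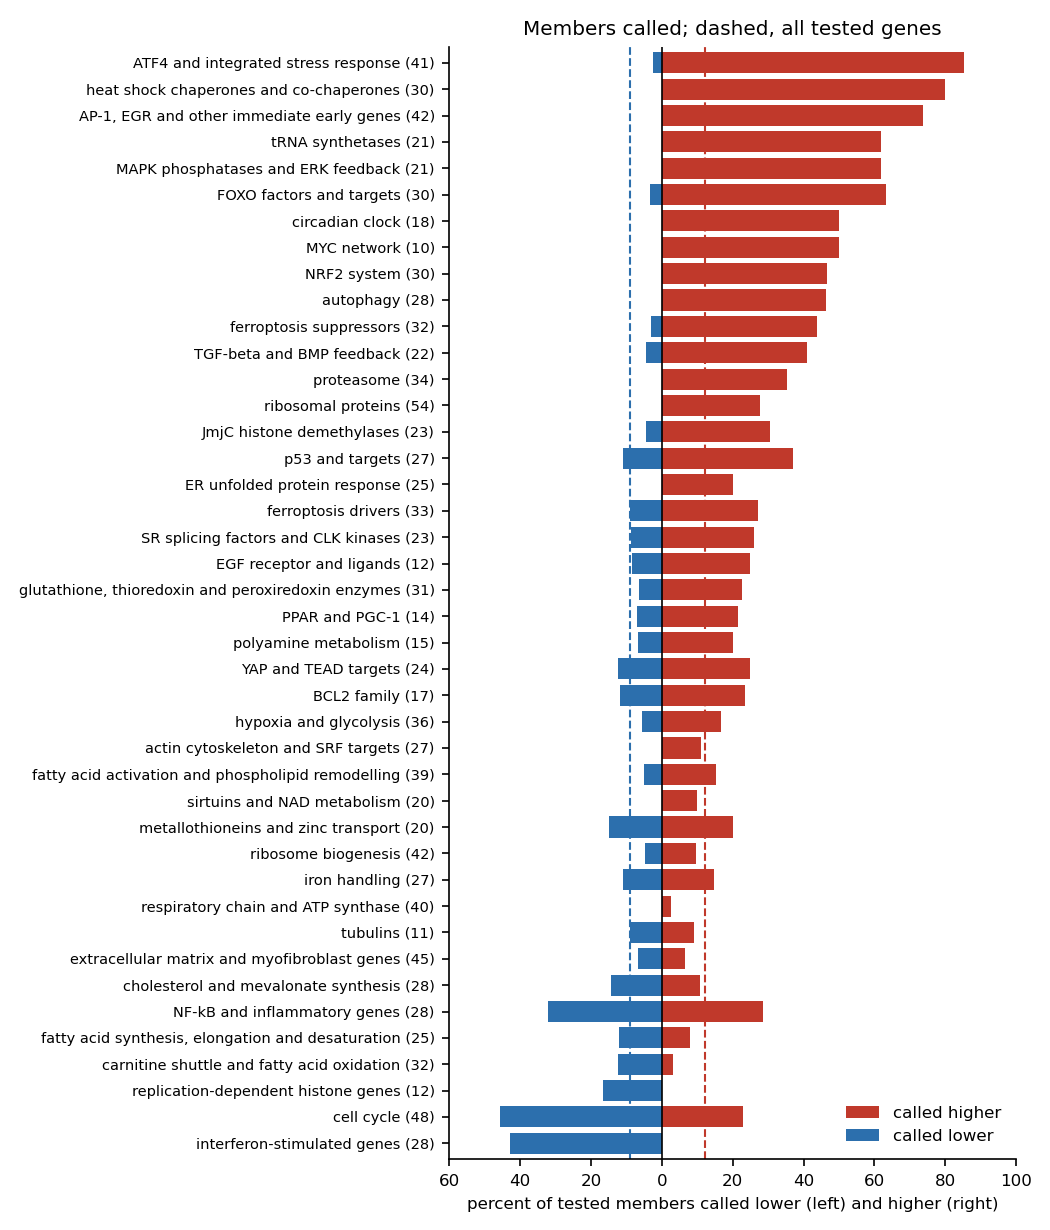
Bars give the percent of a list's tested members (number in parentheses) called higher to the right and lower to the left, for lists with 10 or more tested members, and dashed lines mark 12.3% and 9.06% of all tested genes. The ATF4 list has the highest share higher (85.4%), and the cell cycle list the highest share lower (45.8%).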

How the data were processed

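RNA was counted in 8 libraries of wild-type mouse embryonic fibroblasts in 4 groups of 2. The authors deposited 1 table of expected counts per gene, that is estimated counts that need not be whole, and 76.6% to 77.6% of the values of the 4 libraries compared were exactly whole. Which aligner, counter, build, strand setting or filter made them is not given in the sources used here, so genes that overlap on opposite strands may share reads. Columns were matched to samples by the library names in the labels, a bare name being replicate 1 and a suffixed one replicate 2.

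Counts were rounded to whole numbers. Tests used edgeR 4.0.16 in R 4.3.3, together with limma 3.58.1, with TMM scaling, filterByExpr, a mean for each of the 4 groups over all 8 libraries and the quasi-likelihood test of SRT1720 plus RSL3 minus SRT1720. The fit had 4 residual and 5.73 prior degrees of freedom and a common dispersion of 0.0112. P-values are two-sided and adjusted by the Benjamini-Hochberg method over 12618 genes, with a threshold of 0.05. CPM are TMM-scaled, and ± is the standard error. The depth of 20579122 to 21287620 counts limits genes of low counts most. The fit was tested on simulated data. Genes at a 0 count in all 8 libraries numbered 671.

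The rule for named genes took the 12 largest rises and 12 largest falls that passed, averaged 5 CPM or more and did not overlap, skipping predicted and clone-named loci, and under the same conditions the 6 largest gains and 6 largest losses in CPM. It also took, from each of 47 gene lists and 7 marker lists, up to 3 members that passed, by lowest p, and 1 member by lowest p in a list with no pass. Acsl4, Chac1, Cpt1a, Foxo3, Gpx4, Hmox1, Ptgs2, Scd1, Sirt1 and Slc7a11 were named whatever their values. Another 93 genes, all called but Ftl1, and the other members given with values that did not pass, were chosen after their values were seen. Some genes that the rule named are not reported here. The comparison and the lists were chosen with earlier results of these data known. Promoter sequences are from RefSeq (GRCm38.p6), and motifs were searched in the 250 bases before the start, with windows printed with 40 bases on either side. Alternatives were RLE and library-size scaling, no filter, DESeq2 1.42.0, limma-voom, a replicate block, the robust option, the 4 libraries alone, each library left out, and, added after seeing the data, GC and length trends removed and the control and RSL3 libraries left out.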

Additional observations from a re-analysis of the deposited data

How the results depend on the processing

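The count of genes called higher was 1549 and lower 1143. Scaling by library size only gave 894 and 3066, and fitting only the 4 libraries compared gave 2471 and 2211. With SRT1720 or SRT1720 plus RSL3 libraries left out 1 at a time, 655 to 836 genes were higher and 386 to 490 lower, and the lone library left in its group is then assumed to vary like the other groups. Removing trends with GC content and length gave 1650 and 1692, and leaving out 1 control or RSL3 library gave 1517 to 1944 higher and 1115 to 1608 lower. RLE factors, no filter, DESeq2, limma-voom and the robust option gave 1496 to 1571 higher and 1062 to 1169 lower. Between the SRT1720 and SRT1720 plus RSL3 groups, deviations of libraries numbered alike had r = -0.0679 over 9711 genes. This cannot show whether samples were paired, as the numbers were taken from column names. With the replicate block 1576 genes were higher and 1137 lower. Of 247 named genes that were called, 155 kept their call in all those of the 17 alternatives that gave them an adjusted p. Another 7 named genes were not called. The log2 change of Gpx4 (0.05) turned to -0.16 with library size only and -0.036 with GC and length trends removed, and ran from -0.024 to 0.13 with 1 library left out. That of Acsl4 (0.02) turned to -0.18 with library size only and ran from -0.081 to 0.12 with 1 library left out. DESeq2 gave no adjusted p for 5 named genes, and for these its result was not counted. The cause of these shifts was not tested. Calls of genes at a few counts, such as Rsad2, are limited by depth.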

Other observations

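Clock genes were higher after RSL3 in 9 of 18 tested (50.0%, against 12.3% of all tested genes), with a median log2 change of 0.46. After removal of 1 library at a time, 5 to 7 members were called higher. By library size only, 7 were higher. Ciart, a repressor of the core clock loop, was at 10.5 and 10.4 CPM with SRT1720 and 66.1 and 73.8 CPM after RSL3 (log2 change 2.74 ± 0.15, adjusted p = 4.27e-06). Nfil3, a bZIP repressor with clock-controlled targets, was at 17.1 and 20.3 CPM with SRT1720 and 83.4 and 87.2 CPM after RSL3 (log2 change 2.19 ± 0.13, adjusted p = 4.65e-06), and both were higher in each RSL3 library. Arntl, which encodes the clock activator BMAL1 (0.92), the nuclear receptors Rora (1.81) and Nr1d1 (0.70) and the repressor Cry1 (0.73) rose, while Clock (0.12), Per2 (0.20) and Dbp (-0.29) did not pass. After RSL3, replicate 2 was 0.13 below replicate 1 in the list's median, and the part of this in the change was not tested. Nr1d1 lost its call without SRT1720 plus RSL3 replicate 1 (0.73), without SRT1720 plus RSL3 replicate 2 (0.67) and without SRT1720 replicate 2 (0.58).

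Of 12 genes of the EGF receptor and its ligands, 3 rose (25%) and 1 fell (8.33%), against 12.3% and 9.06% of all tested genes. Areg was at 2.37 and 2.21 CPM with SRT1720 and 11.1 and 12.6 CPM after RSL3 (log2 change 2.37 ± 0.19, adjusted p = 4.22e-05), and Hbegf at 102 and 88.7 CPM with SRT1720 and 315 and 298 CPM after RSL3 (log2 change 1.69 ± 0.13, adjusted p = 2.77e-05). Ereg rose (1.30), Epgn fell from 11 and 10 counts to 1 and 2 counts, and Egfr itself was at 0.05 and did not pass. The call of Epgn, which rests on few counts, ended with any 1 of the 4 libraries left out. In the MYC network 5 of 10 genes rose (50%, against 12.3% of all tested genes). In fits without 1 of the libraries, 2 to 3 members were called higher. Myc was at 415 and 419 CPM with SRT1720 and 837 and 858 CPM after RSL3 (log2 change 1.02 ± 0.14, adjusted p = 0.000942), and its antagonists Mxd1 (1.36) and Mnt (0.65) and its partner Max (0.38) also rose. Of 23 JmjC demethylase genes 7 rose (30.4%, against 12.3% of all tested genes) and 1 fell (4.35%, against 9.06%), with a median of 0.07, or -0.14 with library size only. With 1 of the 4 libraries left out, 4 to 5 members were called higher. With scaling by library size only, 5 were higher and 5 lower. Jmjd6 was at 86.6 and 95.7 CPM with SRT1720 and 161 and 171 CPM after RSL3 (log2 change 0.87 ± 0.10, adjusted p = 0.00032), and the demethylases Kdm4a (0.86), Kdm6b (0.86) and Jmjd1c (0.87) rose while Kdm8 fell (-0.69). Of 23 SR splicing factors and CLK kinases 6 rose (26.1%) and 2 fell (8.70%), against 12.3% and 9.06% of all tested genes. Leaving out each library in turn, 2 to 5 members were called higher. When scaled by library size only, 4 were higher and 6 lower. The rises included Ccnl1 (0.87), Sfpq (0.69), Tra2b (0.55) and the kinases Clk1 (0.62) and Clk4 (0.48), and the falls were Srsf5 (-0.58) and Srsf6 (-0.41). In polyamine metabolism the synthetic enzyme Odc1 (0.73) and its regulator Azin1 (0.65) rose and Amd1 fell (-0.84). Of 11 tubulin genes Tubb2a rose (0.77) and Tubb4b fell (-0.43). Each was 9.09% of the list, against 12.3% and 9.06% of all tested genes. Txnip, which binds thioredoxin, rose from a low level (0.99), as did its relative Arrdc4 (0.80). Translation initiation factors, picked by Eif symbols, rose in 11 of 53 tested (20.8%) and fell in 4 (7.55%). Mitochondrial ribosomal protein genes rose in 2 (2.56%) and fell in 6 (7.69%) of 78. Beside both families, 12.3% of all tested genes were higher and 9.06% lower. Leaving out any 1 of the 4 libraries ended the calls of Max (0.35 to 0.41), Srsf5 (-0.52 to -0.65), Srsf6 (-0.35 to -0.48), Tubb4b (-0.40 to -0.46) and Arrdc4 (0.69 to 0.92). Without SRT1720 plus RSL3 replicate 1, Ereg (1.24), Jmjd1c (0.67), Kdm8 (-0.55), Clk1 (0.58), Clk4 (0.40) and Txnip (0.93) did not pass, nor did Ereg (1.24), Jmjd1c (0.83), Kdm8 (-0.75), Tra2b (0.53), Clk1 (0.62), Clk4 (0.44) and Tubb2a (0.76) without SRT1720 replicate 1. Without SRT1720 replicate 2, Ereg (1.36), Mnt (0.60), Jmjd1c (0.90), Kdm8 (-0.64), Clk1 (0.61), Clk4 (0.53), Azin1 (0.56) and Txnip (0.75) did not pass. By other settings, Arrdc4 (0.80) did not pass with DESeq2 and Max (0.17), Clk4 (0.28) and Arrdc4 (0.60) with library size only.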
